A study of Mus musculus with 12 samples.

Results

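The miRNAs of the hippocampus of vehicle-injected wild-type (wt) mice were ranked by their level in the 3 wt control samples of a TaqMan OpenArray profile. In this assay each miRNA is reverse transcribed, pre-amplified and measured by qPCR, and the result is the threshold cycle (Ct). The Ct falls as the amount rises, by 1 cycle for each factor of 2 if amplification is complete. A miRNA assay entered the ranking when it had a Ct in all 3 samples, which held for 421 of the 619 miRNA assays in the table. The remaining assays had a Ct in 2 samples (102 assays), in 1 sample (62) or in none (34). The control RNAs snoRNA135 and snoRNA202 and the plant miRNA ath-miR159a were left out. For each sample the mean Ct over the 421 assays was subtracted, and the assays were ordered by the mean of this difference. Values given as a level below are this Ct minus the sample mean, in cycles, and a more negative level means more miRNA.

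The wt control mice were C57BL/6 mice labelled as 8 weeks old, which received vehicle into the amygdala and lorazepam, and the ipsilateral hippocampus was taken 8 h later. Tissue of 2 mice was pooled for each sample, and 1 μg of total RNA was reverse transcribed. The other 3 groups of the study were vehicle-injected P2rx7-/- controls of the same strain and age, and both genotypes 8 h after kainic acid was injected into the amygdala (post-SE), again with lorazepam. The P2rx7-/- mice were a constitutive knockout, and each of these groups also had 3 pools. These samples were used here to see whether an observation was also made outside the wt controls. The wt controls had undergone surgery and an injection, so they do not stand for naive mice. RNA degradation was not assessed according to the labels. The Ct values compare assays with different primers and probes, whose efficiencies are not given in the sources used here. The order is therefore an order of assays, and it gives the abundance of the miRNAs only as far as the assays amplify alike.

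A miRNA is cut from a hairpin precursor, and the strand that is loaded into an Argonaute protein (the guide) persists while the other strand (the passenger) is mostly degraded. The guide pairs with its target mRNAs mainly through bases 2 to 8 from its 5′ end, the seed, so miRNAs with the same seed form a family with overlapping targets. Brain tissue is known for high levels of let-7, miR-9, miR-124, miR-125b and miR-128, of which miR-9 and miR-124 are tied to neuronal differentiation. In the assay names a # marks the strand annotated as the passenger, and the prefixes hsa, mmu and rno name the species whose sequence the assay was designed on.

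The sequences of the miRNAs on which the ranking turned were taken from RefSeq (mouse, GRCm38.p6), which held a mature sequence for 277 of the 421 ranked assays. They are written 5′ to 3′ with the seed in capitals. The first set shares 1 seed and runs from the assay at rank 1 (miR-16) to one at rank 198 (miR-15b).
mmu-miR-16-5p: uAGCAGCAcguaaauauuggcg
mmu-miR-195a-5p: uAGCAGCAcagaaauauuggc
mmu-miR-15a-5p: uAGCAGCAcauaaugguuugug
mmu-miR-497a-5p: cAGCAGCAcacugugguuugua
mmu-miR-15b-5p: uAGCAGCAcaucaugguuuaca
The next set holds miR-384-5p, a brain miRNA at rank 3, which carries the seed of the miR-30 family.
mmu-miR-384-5p: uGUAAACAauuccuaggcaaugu
mmu-miR-30c-5p: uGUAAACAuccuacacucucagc
mmu-miR-30a-5p: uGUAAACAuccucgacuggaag
mmu-miR-30e-5p: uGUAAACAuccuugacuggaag
The let-7 family is shown because its members differ by few bases and all 7 ranked members lay above the middle of the ranking.
mmu-let-7e-5p: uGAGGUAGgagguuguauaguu
mmu-let-7g-5p: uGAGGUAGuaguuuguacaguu
mmu-let-7c-5p: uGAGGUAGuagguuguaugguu
mmu-let-7b-5p: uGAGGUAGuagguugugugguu
mmu-let-7a-5p: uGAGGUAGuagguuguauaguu
mmu-let-7f-5p: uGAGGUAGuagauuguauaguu
mmu-miR-98-5p: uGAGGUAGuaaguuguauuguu
Seed sharing did not mean a similar level in every family, as the next set shows, which runs from rank 90 (miR-92) to rank 403 (miR-32).
mmu-miR-92a-3p: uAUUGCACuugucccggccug
mmu-miR-25-3p: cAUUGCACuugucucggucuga
mmu-miR-363-3p: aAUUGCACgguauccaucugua
mmu-miR-32-5p: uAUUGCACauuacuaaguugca
The following miRNAs lay at the low end of the Ct range, where all but miR-212 lost values. The pair miR-132 and miR-212 shares a seed and is transcribed in response to neuronal activity.
mmu-miR-212-3p: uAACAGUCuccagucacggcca
mmu-miR-132-3p: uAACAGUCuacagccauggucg
mmu-miR-9-5p: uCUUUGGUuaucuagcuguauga
mmu-miR-9-3p: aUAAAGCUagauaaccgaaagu
mmu-miR-218-5p: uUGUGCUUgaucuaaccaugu
mmu-miR-24-3p: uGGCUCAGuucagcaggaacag
mmu-miR-126a-3p: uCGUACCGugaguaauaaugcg
mmu-miR-138-5p: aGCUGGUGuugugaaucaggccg
The last set gives the strands from 1 hairpin for 4 miRNAs whose guide and passenger assays were compared, and both arms of miR-136.
mmu-let-7e-3p: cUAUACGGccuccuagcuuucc
mmu-miR-16-1-3p: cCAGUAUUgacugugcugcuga
mmu-miR-30c-1-3p: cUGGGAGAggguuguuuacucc
mmu-miR-125b-5p: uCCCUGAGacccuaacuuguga
mmu-miR-125b-1-3p: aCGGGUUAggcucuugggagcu
mmu-miR-136-5p: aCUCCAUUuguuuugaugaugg
mmu-miR-136-3p: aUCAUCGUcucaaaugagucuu

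The wt control samples did not agree equally well, and replicate 1 stood apart. It had a Ct for 470 miRNA assays, against 535 in replicate 2 and 524 in replicate 3. For 84 assays replicate 1 was the only wt control sample without a Ct, compared with 5 assays for replicate 2 and 13 for replicate 3. In the opposite direction, 19 assays had a Ct in replicate 1 and in no other of the 12 samples, while each of the other 11 samples had between 0 and 5 such assays.

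Over the 421 assays, the Ct of replicates 2 and 3 correlated with a Spearman coefficient of 0.943, and those of replicate 1 with 0.715 (replicate 2) and 0.722 (replicate 3). These coefficients are across assays, which are not independent. Within the other 3 groups the coefficients of sample pairs ranged from 0.866 to 0.943. With the 9 samples of the other groups, replicate 1 correlated at 0.613 to 0.687, replicate 2 at 0.883 to 0.959 and replicate 3 at 0.869 to 0.946. After subtraction of the sample mean, replicate 1 differed by over 2 cycles from replicate 2 for 116 assays and from replicate 3 for 119, whereas replicates 2 and 3 did so for 37. Among the 335 assays with a Ct in all 12 samples, the level departed by over 2 cycles from the median level of the 3 other groups for 72 assays in replicate 1, 3 in replicate 2 and 7 in replicate 3.

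**Figure D1:**
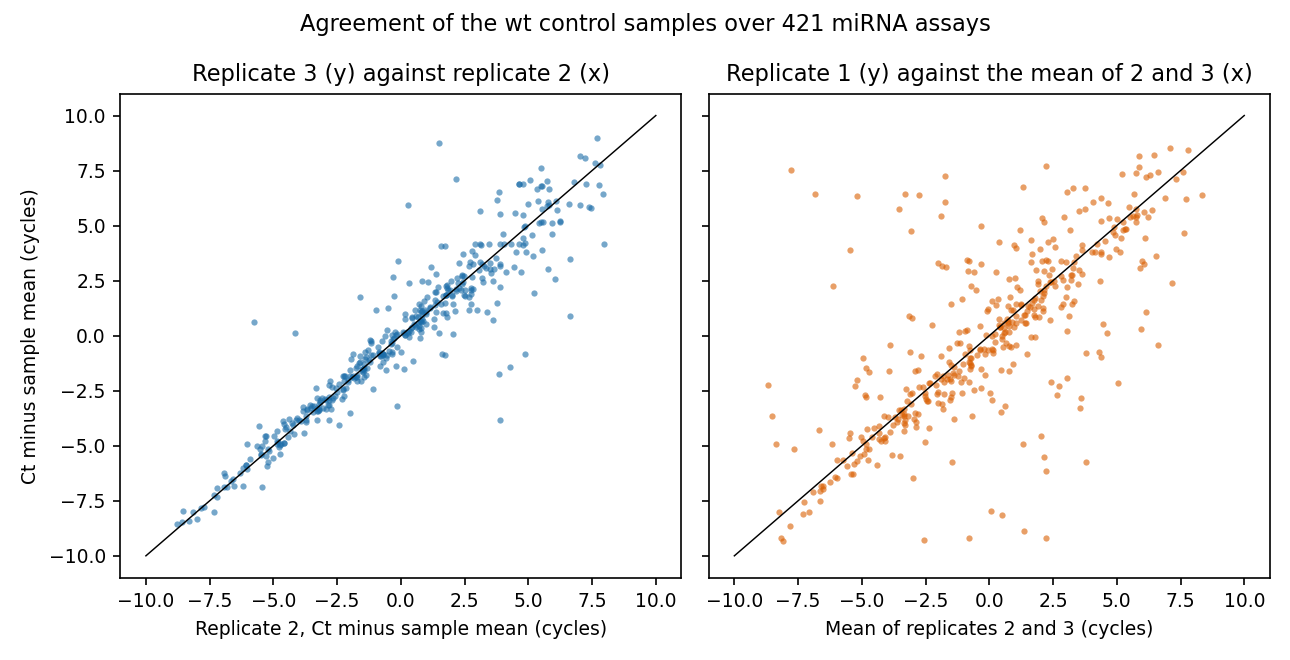
Level (Ct minus the sample mean, in cycles) of the 421 ranked miRNA assays in wt control replicate 3 against replicate 2 (left) and in replicate 1 against the mean of replicates 2 and 3 (right), with 1 point per assay and the line of equality. On the left 37 assays differ by over 2 cycles, and on the right 61 assays lie over 2 cycles above the line and 48 over 2 cycles below it.

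The departures of replicate 1 went both ways. Compared with the mean of replicates 2 and 3, its level was over 2 cycles higher for 61 assays and over 2 cycles lower for 48, and over 6 cycles for 13 and 15 assays. The widest departure was miR-26a, a miRNA present in most tissues, with a Ct of 26.9 in replicate 1 against 11.3 and 10.9 in replicates 2 and 3. The assay for miR-150, which is abundant in lymphocytes, read 25.8 against 12.2 and 11.8. In the same way miR-99a gave 25.7, 13.6 and 13.7, miR-376b 25.8, 15.6 and 15.5, miR-100 23.3, 13.5 and 13.2, miR-376a 25.2, 15.3 and 15.3, and miR-380-5p 25.8, 16.3 and 15.8. On the other side, miR-151-5P read 10.2 in replicate 1 against 21.7 and 20.4, miR-540-5p 10.5 against 19.3 and 21.0, and miR-423-5p 13.6 against 22.5 and 22.8. These 10 assays were chosen as those in which replicate 1 lay farthest from the mean of replicates 2 and 3.

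The repeated control wells also separated the samples. The 16 snoRNA135 wells of replicate 2 lay between 14.2 and 14.8 (SD 0.197 cycles) and those of replicate 3 between 13.8 and 14.6 (SD 0.214 cycles). In replicate 1, 14 of the 16 wells had a Ct, which ran from 11.5 to 26.6 (SD 3.63 cycles). The wells of 1 sample repeat the same measurement. Whether RNA, pre-amplification, loading or assignment of wells contributed was not tested. Each result below is therefore given with the 3 samples and, where it changes, without replicate 1.

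The ranked miRNAs spanned 16.5 cycles, from a level of -8.51 for miR-16 to 8.01 for miR-292-3p. The middle of this range was densely filled, and the interquartile range was 5.02 cycles, a factor of 32.5. The SD over the 3 samples had a median of 0.65 cycles over the assays, and it exceeded 1 cycle for 152 of them (36.1%) and 3 cycles for 41. Without replicate 1, 505 assays had a Ct in both samples and the median SD was 0.29 cycles. Precision fell with the level. In the most abundant of 4 equal parts of the ranking, replicates 2 and 3 differed by a median of 0.28 cycles, and 2 assays (1.89%) differed by over 2 cycles. In the least abundant part the median was 0.81 cycles and 17 of 105 assays (16.2%) differed by over 2 cycles.

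**Figure D2:**
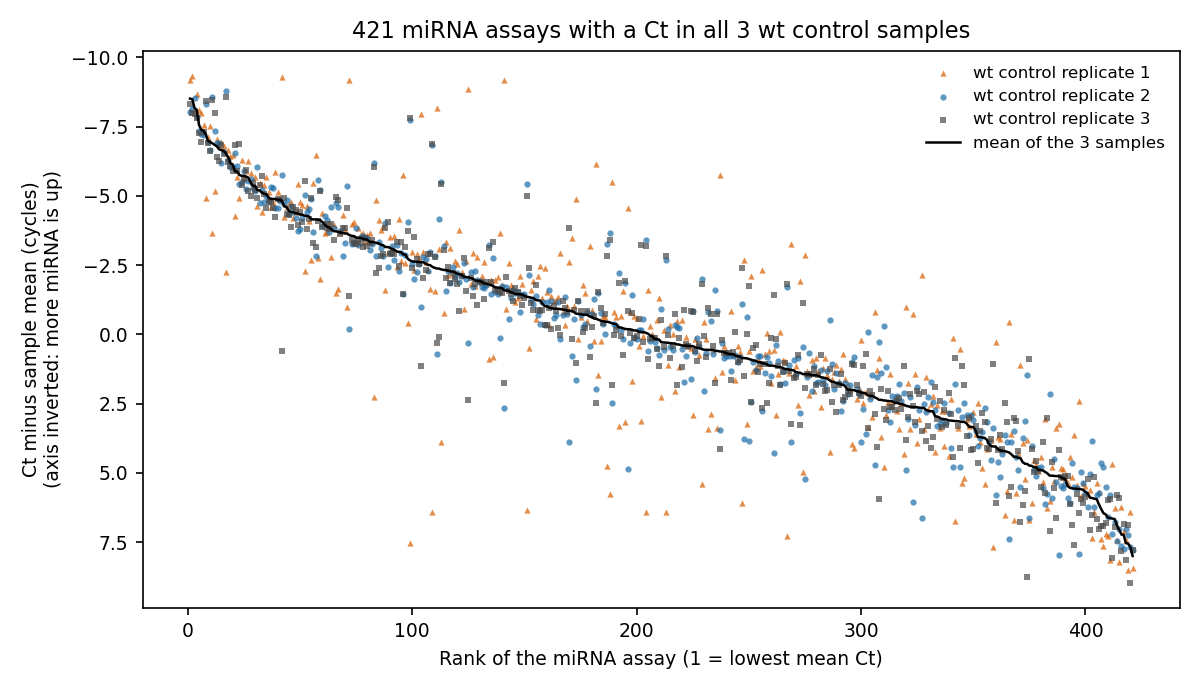
Level (Ct minus the sample mean, in cycles, axis inverted so that more miRNA is up) of the 421 miRNA assays in each wt control sample against their rank, with the line giving the mean of the 3 samples. The line falls from -8.51 to 8.01 cycles, and most points far from it belong to replicate 1.

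Ranks below are positions in a list. The 421 assays shared the span of 16.5 cycles, so most neighbours lay closer together than the median SD of 0.65 cycles, and their order was not separated from the spread between the samples.

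The assays with the lowest mean Ct included miRNAs known from brain or from most tissues. The assay for miR-16, a regulator of cell cycle genes, stood at rank 1 with Ct values of 10.2, 10.997 and 10.3 in replicates 1, 2 and 3 (level -8.51 ± 0.61, SD, n = 3). It was followed by miR-30b (10.1, 10.9 and 10.7), miR-384-5p (11.4, 10.5 and 10.7), a miRNA studied in synaptic potentiation, and miR-29c (10.7, 11.2 and 10.8), whose family targets collagen mRNAs. These 4 assays lay within 0.41 cycles of each other in mean level and their order differed between the samples. Next came miR-139-5p (11.3, 11.7 and 11.4), miR-125b (11.4, 11.8 and 11.7), a miRNA abundant in the nervous system, and miR-484 (11.8, 11.8 and 11.3). The activity-regulated miR-212 ranked 9 with 12.3, 12.1 and 11.8, and had the smallest SD of the 20 assays (0.12 cycles).

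For 4 of the first 20 assays the SD exceeded 1 cycle, each time through a higher Ct in replicate 1. The assay for miR-191, a widely expressed miRNA, ranked 8 with 14.5, 10.7 and 10.2. The assay for miR-204, a miRNA from within the Trpm3 gene that is abundant in the choroid plexus, ranked 11 with 15.7, 10.4 and 10.2. The assay for miR-196a#, the only passenger strand among the first 20, ranked 12 with 14.2, 11.7 and 10.7. The widest of the 4 was miR-30c at rank 17, with 17.2, 10.2 and 10.1. Without replicate 1, miR-30c ranked 1, miR-204 ranked 3 and miR-191 ranked 4, while miR-196a# stayed at 12.

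The other assays among the first 20 were miR-720, miR-149, miR-2146, miR-342-3p, miR-1274A, miR-127, miR-805 and let-7e, with SDs between 0.16 and 0.52 cycles. Of these, miR-720 (11.9, 12.3 and 12.04) and miR-1274A (12.6, 12.4 and 12.1) were annotated as miRNAs when the assays were designed and have since been assigned to tRNA fragments. The let-7e assay, at rank 20, read 12.9, 12.95 and 12.8. The imprinted miR-127 (12.8, 12.7 and 12.4) had the lowest mean level among the ranked miRNAs of the cluster on chromosome 12 described below. The assay for miR-434-3p, which had no Ct in replicate 1, ranked 16 without that sample, against 28 for miR-127.

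**Figure D3:**
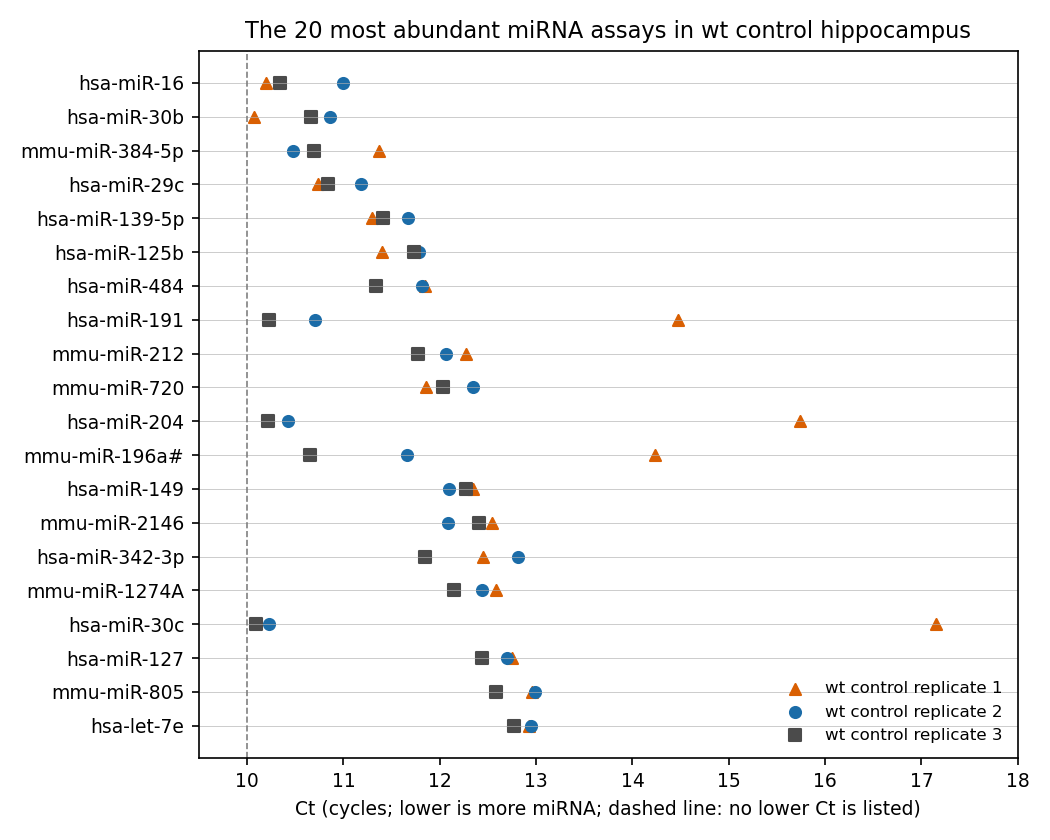
Ct values (cycles) of the 20 most abundant miRNA assays in the 3 wt control samples, with the most abundant assay at the top and a dashed line at 10, below which the table lists no Ct. For 16 assays the 3 samples lie close together, and for miR-191, miR-204, miR-196a# and miR-30c replicate 1 lies to the right of replicates 2 and 3.

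Leaving out replicate 1 changed which assays headed the list. Of the 20 assays, 12 were also among the 20 most abundant of replicates 2 and 3, 19 were so without replicate 2 and 18 without replicate 3. Assays that entered without replicate 1 included miR-132 at rank 2 and miR-1897-5P at rank 9, which had no Ct in replicate 1, and miR-26a at rank 10 and miR-150 at rank 19, which ranked 99 and 109 with all 3 samples. Over the 421 assays the 3-sample order and the order of replicates 2 and 3 had a Spearman coefficient of 0.963, while single assays such as miR-150 moved far. Both orders contain replicates 2 and 3, so this coefficient is high in part by construction. Ranked in the same way, the first 20 assays shared with the wt controls numbered 13 in the P2rx7-/- controls, 10 in the wt post-SE group and 11 in the P2rx7-/- post-SE group. Some of the others had no rank there because a Ct was empty, such as miR-384-5p and miR-204 in both post-SE groups. Over the assays ranked in both groups the Spearman coefficients were 0.926, 0.943 and 0.937, in the same order.

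Chromosomal positions follow RefSeq (GRCm38.p6), which here gives the bounds of genes and not their exons. The mature miR-16 is encoded at chr14:61631936-61631957, within the bounds of the lncRNA Dleu2, and at chr3:69009918-69009939, within those of Smc4. The single locus of miR-384-5p, chrX:105344332-105344354, lies outside the bounds of the protein-coding and lncRNA genes in the table. Several of the first 20 lie within protein-coding genes, with miR-139-5p in Pde2a (chr7:101475382-101475403), miR-204 in Trpm3 (chr19:22750610-22750631), miR-149 in Gpc1 (chr1:92850381-92850403), miR-342-3p in Evl (chr12:108658680-108658702) and miR-191 in Dalrd3 (chr9:108568325-108568347). The activity-regulated pair lies close together, miR-212 at chr11:75173443-75173464 and miR-132 at chr11:75173723-75173744.

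The ranking was cut at its upper end by values that were empty. The table listed no Ct below 10.004 and none above 27.9986, and empty values accumulated at both ends. Each assay was placed by its mean Ct in the 9 samples of the other groups. Where that mean lay between 26 and 28, 55.9% of the wt control values were empty, and between 14 and 24 the share ran from 7.66% to 12.1%. Where it lay between 10 and 11, 31 of 45 wt control values were empty (68.9%). In this lowest bin 9 of the 15 assays were empty in replicate 1, 10 in replicate 2 and 12 in replicate 3. Of these 15 assays, 7 had a Ct in under 3 of the other 9 samples, so that their placement rests on 1 or 2 values.

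**Figure D4:**
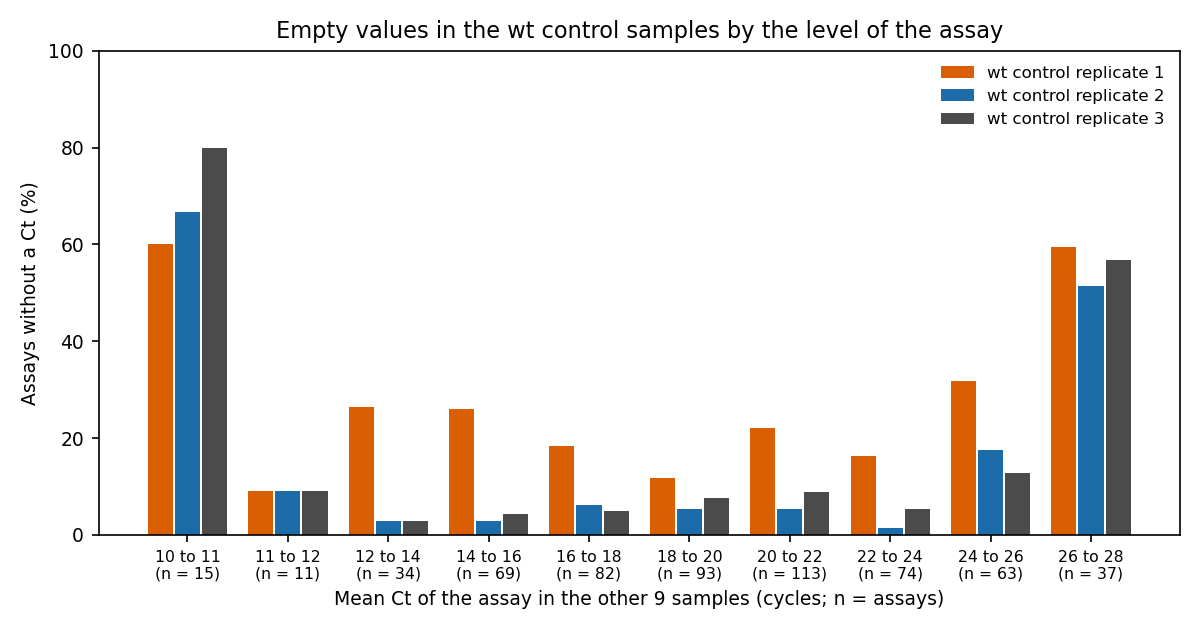
Percent of miRNA assays without a Ct in each wt control sample, by the mean Ct of the assay in the 9 samples of the other groups (n, number of assays per bin). The share is between 60 and 80% at 10 to 11 cycles and between 51.4 and 59.5% at 26 to 28 cycles, and in every bin from 12 to 24 cycles it is lower in replicates 2 and 3 than in replicate 1.

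The assays that lost values at the low end included well-known brain miRNAs. The assay for miR-9, a miRNA of neural progenitors and neurons, had no Ct in any wt control sample, while 4 of the other 9 samples gave 10.1 to 12.3. The assay for miR-218, encoded within Slit2 and Slit3, likewise had none, while 8 of the other 9 gave 10.5 to 11.1. The assay for miR-138, which acts in dendritic spines, gave 23.99 in replicate 1, 10.5 in replicate 2 and none in replicate 3, with 10.1 to 11.3 in 8 of the other 9. None of these could be ranked.

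The same held for miR-132, with no Ct in replicate 1 and 10.4 and 10.2 in replicates 2 and 3. The assay for miR-24 read 10.1 in replicate 2 alone, and that for the endothelial miR-126, from within Egfl7, read 10.1 in replicate 1, 10.5 in replicate 2 and none in replicate 3. In all, 7 assays had at least 4 Ct values in the series, all of them between 10 and 13, and at least 1 empty value in the wt controls, namely miR-9, miR-9#, miR-24, miR-126, miR-132, miR-218 and mmu-miR-1937C. When their empty values were set to 10, which was chosen after seeing the data, all 7 entered the first 20 and 13 of the 20 ranked assays remained. Their entry followed from the choice of assays with low Ct values and of the value set, so it gives no support for their rank. For miR-9#, empty in replicate 1 alone, the 11 listed values lay between 11.7 and 12.5, above the value set. Replicate 1 also had no Ct for 26.5% of assays with a mean of 12 to 14 in the other groups. Values set to the limit have no order among themselves.

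In replicate 3 the snoRNA202 wells gave the same picture for an RNA measured 16 times per sample. In replicate 2 all 16 wells had a Ct, between 10.1 and 10.5. In replicate 3 a Ct was listed for 3 wells, between 10.05 and 10.2, and 13 wells were empty. In replicate 1, 12 wells had a Ct, which ran from 10.01 to 23.3 (SD 3.74 cycles). That sample also had 2 empty snoRNA135 wells at a median of 14.4, so its empty wells were not confined to the low end. An empty value thus occurred at both ends of the Ct range, and an assay without a Ct cannot be read as an absent miRNA from these values alone. The step that left values below 10 empty is not given in the sources used here and was not tested.

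Members of the abundant families ranked high, but the span within a family was large. The 421 assays had a median level of 0.29. The let-7 family, which restrains proliferation and is abundant in differentiated tissue, had a Ct in all 3 samples for 7 of its 9 assays, with a median level of -4.59. Its order ran from let-7e (-6.14) over let-7g (-5.65), let-7c (-4.89), let-7b (-4.59), let-7a (-3.72) and let-7f (-2.24) to miR-98 (-2.01), over 4.13 cycles. The SDs of the 7 lay between 0.25 and 0.83 cycles, and every value of let-7e lay below every value of miR-98, whereas the neighbours let-7f and miR-98 changed order between samples. The assays for let-7d (14.8 and 15.3) and let-7i (13.2 and 13.1) had a Ct in replicates 2 and 3.

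In the miR-30 family 4 of 5 assays could be ranked (median -5.29), and 2 of them depended on replicate 1. The assay for miR-30c read 17.2, 10.2 and 10.1 as given above, and that for miR-30a-5p read 21.7, 12.8 and 12.6, whereas miR-30d read 15.03, 15.1 and 14.8. The assay for miR-30e gave no Ct in replicate 1 and 13.9 and 13.7 in the others. Without replicate 1 the median of the 5 was -6.13. The assays of the opposite arms, named miR-30e-3p and miR-30a-3p and not marked with #, ranked 22 and 25 with SDs of 0.21 and 0.16 cycles.

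The largest difference within a seed family of at least 3 miRNAs was found for the seed of miR-92, miR-25, miR-363 and miR-32, at 9.04 cycles. The miR-92 assay, a member of the miR-17-92 cluster, read 15.9, 16.1 and 15.7, and that for miR-25 read 20.3, 19.8 and 20.01. The assays for miR-363 (25.4, 21.2 and 25.8) and miR-32 (26.8, 22.9 and 25.2) varied by several cycles between samples, but each of their values lay above all values of miR-92 and miR-25. In the miR-16 family the span was 8.35 cycles, from miR-16 over miR-195 (17.4, 13.8 and 13.5), miR-15a (17.7, 16.7 and 16.8) and miR-497 (17.6, 17.3 and 17.2) to miR-15b (21.1, 17.6 and 17.9). In each of the 3 samples miR-16 read at least 2.80 cycles below every other member.

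The miR-17, miR-20, miR-93 and miR-106 family had a Ct in all 3 samples for 7 of 7 assays, with a median of -3.45. Its members miR-17 (14.01, 14.2 and 13.6) and miR-20a (14.5, 14.2 and 13.8) lay within 0.22 cycles in mean level, and the last by rank were both assays for miR-20b, of which the human one gave 21.7, 18.1 and 18.2. The median levels of the remaining families were -5.72 for miR-29 (2 of 3 assays ranked), -3.54 for miR-26 (2 of 2), -2.72 for miR-181 (2 of 2), -2.34 for miR-99 and miR-100 (3 of 3), -2.28 for miR-103 and miR-107 (2 of 2), -0.93 for miR-200, miR-141 and miR-429 (5 of 7), -0.68 for miR-27 (2 of 2) and 1.44 for miR-34 and miR-449 (5 of 6). Of miR-125 and miR-23, 1 of 2 assays each was ranked, at -7.38 (miR-125b) and -0.90 (miR-23b). Without replicate 1 the median was -6.15 for miR-26, -5.22 for miR-99 and miR-100 and -2.16 for miR-27, whose member miR-27a read 26.7, 17.3 and 16.9. For miR-15, miR-16 and their relatives it was -1.36 against -0.91 with all 3 samples, for miR-200, miR-141 and miR-429 it was -0.42, and for both miR-23 assays it was -1.47.

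Markers of cell types were then placed in the ranking to check the labelled tissue. Assays were taken by exact name, so those with # and some for other arms of these miRNAs were not on the lists. Of 10 assays for neuronal miRNAs, 6 were ranked, with a median level of -4.17 against 0.29 over all ranked assays. They were miR-212 (rank 9), miR-128a (14.8, 13.7 and 13.9), miR-124a (15.2, 14.3 and 13.7), miR-137 (17.9, 14.3 and 13.7), miR-129 (23.5, 19.8 and 19.8) and miR-153 (23.6, 21.7 and 20.6). The assay miR-129-3p, not on the list, ranked 88 (17.8, 14.99 and 14.8), against 297 for the miR-129 assay. The other 4 were miR-9, miR-218, miR-138 and miR-132, which each lacked a Ct in at least 1 wt control sample. For miR-132 this was replicate 1 alone, which also lacked values at higher Ct. In bulk tissue, fewer cells of a type and less RNA per cell cannot be told apart, so these levels do not give cell numbers.

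Markers of other cells of the tissue were spread over the ranking, and no test compared the lists. The oligodendrocyte miRNAs miR-219 (20.9, 17.5 and 17.1) and miR-338-3p (17.3, 18.3 and 17.8) ranked 183 and 156, and the second assay for miR-338 had a Ct in replicates 2 and 3. For microglia and other myeloid cells 5 of 6 assays were ranked, with levels from -5.75 to 5.94 (median -1.45, and -2.40 over 6 assays without replicate 1). Among them, miR-223 lay high in both assays and miR-142-3p read 18.1, 17.5 and 17.1. Of the mural cell markers, miR-145 read 17.1, 13.98 and 13.1 (level -4.28), and both assays for miR-143 had a Ct in replicates 2 and 3. These miR-143 assays lay far apart, with 15.8 and 14.7 for one and 21.1 and 20.5 for the other. Without replicate 1 they ranked 93 and 345. The red cell miRNAs miR-486 (15.3, 15.7 and 16.3) and miR-451 (15.6, 17.1 and 17.8) were ranked 85 and 121 (median -2.73, and -1.38 over 3 assays without replicate 1). Of the 12 assays for choroid plexus and other epithelium 9 were ranked (median -0.93, and -0.06 over 11 assays without replicate 1), led by miR-204. Not on this list were miR-34b-3p at rank 24 and miR-34b-5p at rank 276. The part of blood and choroid plexus in the levels of other miRNAs was not tested.

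Markers of tissues other than brain lay at the low end, in the middle and in some cases in the upper part of the ranking. Of 13 assays for embryonic stem cell miRNAs, 4 were ranked, at levels of 5.57 to 8.01, and all 4 lay at rank 395 or later. They included miR-292-3p, the last of the ranking (27.8, 26.8 and 26.4), miR-302d (25.7, 25.8 and 25.6) and miR-302b (26.7, 25.6 and 24.6). Of 12 assays for a testis-expressed cluster on the X chromosome 1 was ranked, miR-465b-5p at 420. Without replicate 1, 3 of the 12 had a Ct in both samples, and miR-878-3p (14.2 and 15.6) ranked 83. Low Ct values in 1 wt control sample alone were read for miR-883B-5P (12.3, replicate 1) and the stem cell miRNA miR-291a-3p (11.8, replicate 3). The other assays of these lists with a Ct in 1 wt control sample alone read 19.97 to 27.1. Of 5 assays for miRNAs of posterior Hox loci 1 was ranked, miR-10a (22.98, 22.9 and 24.2). The assay miR-196a#, of the same loci but not on the list because of its #, ranked 12 (14.2, 11.7 and 10.7). The liver miRNA miR-122 had no Ct in replicate 1 and 23.8 and 24.6 in the others. Most muscle miRNAs ranked low, with miR-499 at 419 (27.9, 26.3 and 25.6), miR-1 at 330 (human assay) and 355 (rat assay) and miR-206 at 331. In contrast, miR-133a ranked 69 (15.1, 16.2 and 14.8), and 105 without replicate 1. The assay for miR-133b read 14.5, 20.6 and 19.7. Its rank of 173 thus rested on replicate 1, and it was 314 without that sample. The pancreas list gave a median of 3.09 for 4 of 5 assays (1.69 without replicate 1), with miR-375 at rank 157 (level -1.22).

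Besides those, the 20 least abundant assays were miR-450 (rno), miR-199b, miR-879, miR-215, miR-205, miR-1932, miR-147b, miR-1197, miR-200a#, miR-200b#, miR-299-5p, let-7e#, miR-142-5p, miR-32 and miR-433-5p. The SD exceeded 1 cycle for 8 of the 20, against 4 of the first 20. The upper limit bore on the last ranks, since 55.9% of the values at 26 to 28 cycles were empty and assays with an empty value were not ranked. Of the 20, 10 were also among the last 20 without replicate 1. Assays with a Ct below 26 in all 3 samples numbered 395, and 5 of the 20 were still among the last 20 of these.

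Guide and passenger strands were compared within each sample, where the sample mean cancels. Differences in efficiency between the assays do not cancel. Assays of the same miRNA name, compared below, differed by a median of 2.02 cycles in absolute value (1.17 without replicate 1). Strand differences of this size therefore cannot be told apart from differences between assays. For 55 pairs of an assay without # and the assay of the same name with # both had a Ct in all 3 samples. The pairs follow the names, and some guide assays occur in more than 1 pair, as does miR-125b with 3 passenger assays. In limma with Benjamini-Hochberg adjustment over the 55 pairs, the guide had the lower Ct for 35 pairs at an adjusted p below 0.05 (63.6%), and the passenger had it for 3 pairs (5.45%). The median of all differences, passenger minus guide, was 4.43 cycles. In 41 pairs the guide was lower in all 3 samples, in 5 pairs the passenger was, and in 9 pairs the samples differed in direction. In 5 pairs replicate 1 alone lay on the other side of 0 from replicates 2 and 3. The samples are pools of mice, so these p-values measure the spread between 3 pools.

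The largest differences exceeded 11 cycles. The miR-30b guide read 10.1, 10.9 and 10.7 and its passenger 23.1, 23.6 and 22.8, a difference of 12.65 ± 0.31 cycles (SE, adjusted p = 0.000489 in limma). The let-7e strands, shown above, read 12.9, 12.95 and 12.8 (guide) and 24.8, 24.8 and 25.3 (passenger), a difference of 12.09 ± 0.30 cycles. For miR-16 the passenger read 22.2, 22.1 and 22.01, a difference of 11.58 ± 0.31 cycles, and for miR-125b the passenger of its hairpin on chromosome 9 read 23.2, 23.5 and 22.4, a difference of 11.43 ± 0.37 cycles. In these 4 pairs the strands were separated by more than 10 cycles in every sample.

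The miR-30c pair differed by 12.09 ± 1.94 cycles (adjusted p = 0.0130 in limma), with 7.39 cycles in replicate 1 and 13.4 and 15.5 in the others, and it was not called without replicate 3 (adjusted p = 0.0770). Towards the other end, let-7a and its passenger differed by 4.43 ± 0.27 cycles and miR-27b and its passenger by 4.67 ± 0.24 cycles, the latter with 4.67, 4.68 and 4.66 in the 3 samples. The smallest difference called for a guide was 1.44 cycles (miR-18a). This pair was not called in limma without replicate 2 (adjusted p = 0.214) or replicate 3 (adjusted p = 0.170), nor in any of the other 3 groups (adjusted p = 0.141, 0.126 and 0.0931). Of the 17 pairs that were not called, 9 had samples on both sides of 0. For miR-340, miR-322, miR-93 and miR-872 the mean difference lay within 0.12 cycles of 0, with 95% intervals of -0.87 to 0.65, -1.36 to 1.13, -0.85 to 1.08 and -0.86 to 1.10 cycles. Which arm the miR-340 and miR-322 assays read is not known from their names. The mean of mmu-miR-376a and mmu-miR-376a# was also near 0 (0.05 cycles, 95% interval -8.13 to 8.23), through -6.59 cycles in replicate 1 against 3.30 and 3.43 in the others.

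**Figure D5:**
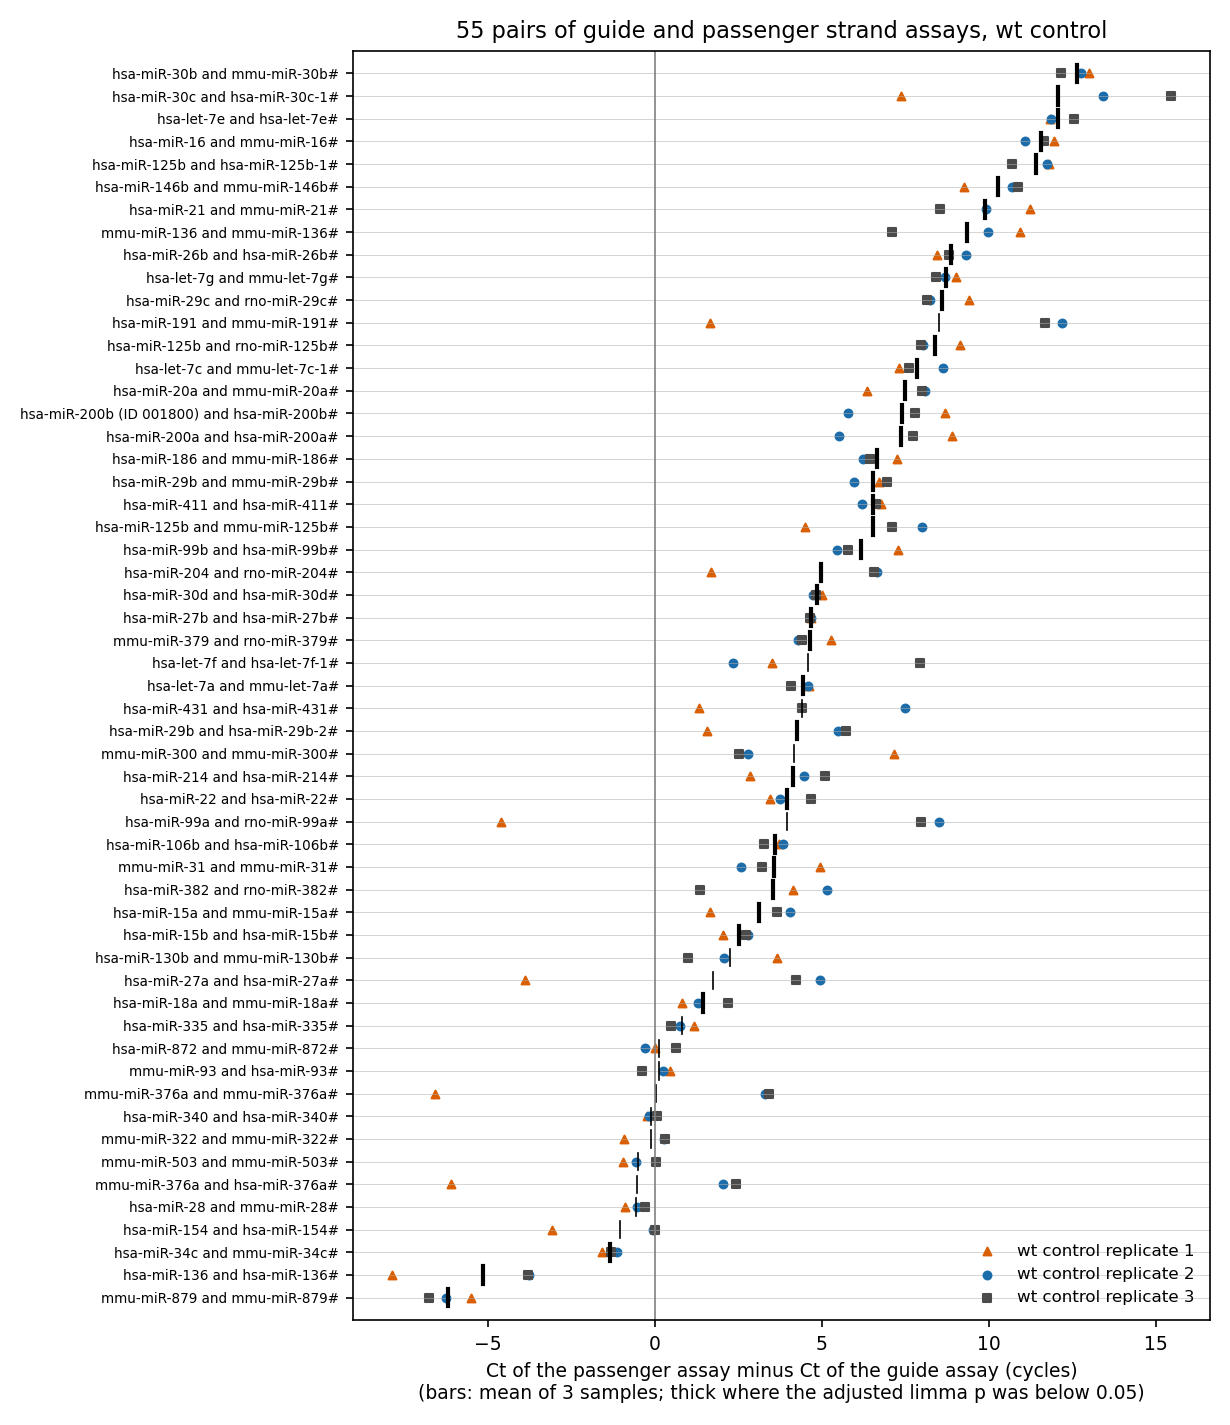
Ct of the passenger strand assay minus Ct of the guide strand assay (cycles) for 55 pairs in the 3 wt control samples, ordered by the mean (bars, thick where the adjusted limma p was below 0.05). Values to the right of 0 mean a lower Ct for the guide assay, and the means run from -6.18 cycles for miR-879 to 12.65 cycles for miR-30b.

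The 3 pairs called in the opposite direction were miR-879, miR-136 and miR-34c. The assay for miR-879 was at the low end (25.6, 26.6 and 26.5) and its passenger read 20.1, 20.4 and 19.7, a difference of -6.18 ± 0.37 cycles (adjusted p = 0.00119 in limma). For miR-34c, of a family that is induced by p53, the guide read 17.2, 16.9 and 16.6 and the passenger 15.6, 15.8 and 15.3, a difference of -1.34 ± 0.26 cycles (adjusted p = 0.0210). For hsa-miR-136 the guide read 22.6, 18.4 and 18.7 and hsa-miR-136# 14.8, 14.6 and 14.9, a difference of -5.14 ± 1.10 cycles (adjusted p = 0.0268). Without replicate 3 the adjusted p was 0.102 for miR-136 and 0.117 for miR-34c, and without replicate 2 it was 0.185 for miR-34c. The pairs miR-136 and miR-34c were called in the same direction in all 3 other groups, while miR-879 was not tested there, as a Ct was missing.

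For miR-136, from chr12:109595331-109595387, the assays designed on the mouse sequence gave the opposite order. The assay mmu-miR-136 read 14.7, 14.8 and 14.6 and mmu-miR-136# 25.7, 24.8 and 21.7, so that here the guide was lower by 9.34 ± 0.95 cycles (adjusted p = 0.00386 in limma). Which of the arms printed above each of the 4 assays reads is not given in the files. The direction by assay name thus differed between the human and the mouse assays, and which strand of miR-136 was more abundant cannot be told from these values.

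The comparison was repeated in samples that were not used for it. Of the 35 pairs called for the guide, 28 had a Ct for both strands in all samples of the other 3 groups, and 26 of these were called in the same direction in each of the groups. In those groups the guide was called for 51 of 65 pairs (P2rx7-/- control), 44 of 57 (wt post-SE) and 43 of 59 pairs (P2rx7-/- post-SE), and the passenger for 4, 4 and 5. Without replicate 1, 34 of the 35 pairs were called in the same direction, and without replicates 2 and 3 the numbers were 29 and 24.

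Pairs in which 1 strand lacked a Ct were also unequal. Of 85 pairs in all, 11 had a Ct in all 3 samples for the guide alone, 14 for the passenger alone and 5 for neither. In 11 of the 14 pairs with the passenger alone, the guide had the lower mean Ct in the 9 samples of the other groups. The clearest were miR-218, miR-24, miR-29a and miR-138, whose guides had mean Ct values of 10.8, 10.7, 10.4 and 10.6 there. Their passengers were read in every wt control sample, with 20.3, 20.3 and 20.03 for miR-218-2#, 18.8, 18.7 and 18.5 for miR-29a#, 17.5, 17.9 and 17.8 for miR-24-2# and 17.3, 17.3 and 16.8 for miR-138#. The value for miR-29a rests on 2 samples. The opposite was seen for miR-196a#, which read 14.2, 11.7 and 10.7 while the guide assay gave 21.5 in replicate 3 alone. Lower means of the passenger in the other 9 samples were also found for miR-674# (18.3 against 19.8) and miR-501# (20.5 against 23.6). Among the pairs with the guide alone, rno-miR-7# and miR-376b# had no Ct in replicate 1 but read below their guides in replicates 2 and 3. The values were 12.8 and 12.6 against 18.2 and 17.8 for miR-7, and 14.8 and 14.7 against 15.6 and 15.5 for miR-376b.

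Some miRNA names were carried by more than 1 assay, which shows how far assays of 1 name differ in 1 sample. The pairs follow the names, and for miR-136 it is not known whether both assays of a pair read the same arm. For 27 pairs of assays of the same name both had a Ct in all 3 samples. The median absolute difference was 2.02 cycles with all samples and 1.17 cycles without replicate 1, and 11 pairs lay within 1 cycle. In limma with Benjamini-Hochberg adjustment, 6 of the 27 pairs (22.2%) differed at an adjusted p below 0.05, and 10 did so before adjustment. Without replicate 1 the number was 12 of 37 pairs, and all 6 were among them. Without replicate 3 it was 0 of 28, with 4 before adjustment.

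The 6 pairs concerned miR-136, miR-136#, miR-543 (in 2 pairs), miR-381 and miR-223. The widest gap was that between hsa-miR-136# and mmu-miR-136#, at 9.30 ± 0.98 cycles (adjusted p = 0.00937 in limma). As the arms are not known, this gap and that of the miR-136 pair cannot be assigned to assays of the same strand. The rat assay for miR-543 read 22.5, 25.1 and 24.4, higher by 4.93 ± 0.75 cycles than the mouse assay (19.1, 19.2 and 18.8) and by 5.54 ± 1.06 cycles than the human assay (19.6, 17.7 and 18.01). The 2 assays for the myeloid miRNA miR-223 read 14.5, 13.6 and 11.8 (ID 000526) and 16.4, 16.6 and 14.6 (ID 002295), a difference of 2.60 ± 0.58 cycles, and placed it at rank 23 or 89. The pairs for miR-489, miR-217 and miR-421 were also over 3 cycles apart on average and did not pass the adjusted threshold. For miR-489 the rat minus the mouse assay gave -4.36, -0.53 and -6.38 cycles in the 3 samples, for miR-217 the differences were -1.72, -6.15 and -2.03 cycles, and for miR-421 the rat minus the human assay gave 8.92 and 5.92 cycles in replicates 2 and 3 and nearly the same Ct in replicate 1 (17.2 in both). Differences of a few cycles were thus found between assays that carry the name of the same miRNA.

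Sequence features were compared with the ranking for the 277 ranked assays with a RefSeq sequence. Among those without # 47.3% of 224 began with U, and among those with # 16.98% (9 of 53) did. In the RefSeq table as a whole, 40.9% of 1679 mature miRNAs began with U. Among assays without # the share was 52.7% in the first of 4 equal parts of the ranking (74 assays) and 46.9%, 40.9% and 45.2% in the parts that followed. The GC content had no visible relation to the level (Spearman coefficient 0.08 across the 277 assays), nor had the length (-0.02). These are descriptions across assays, many of which share a family or a hairpin.

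Passenger strands as a class lay lower in the ranking. Of the 98 assays marked with #, 73 were ranked (74.5%), as were 348 of the 521 other assays (66.8%). The median level was 1.30 for the former and -0.23 for the latter. In the most abundant of the 4 parts 5 assays were passengers, namely miR-196a#, rno-miR-7a#, hsa-miR-136#, miR-34c# and miR-93#, compared with 26 in the least abundant part.

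The imprinted cluster on chromosome 12, between Mir770 and Mir410 (chr12:109563710-109743784), contributed 60 assays, of which 49 were ranked and 1 had no Ct in any wt control sample. This cluster is expressed from the maternal chromosome and is known for its activity in brain. Its assays were spread over nearly the whole range, from rank 18 (miR-127) to rank 402 (miR-433-5p), with a median level of -0.06 against 0.29 over all ranked assays. The median SD of the 49 was 0.64 cycles against 0.65 over all assays.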

How the data were processed

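Total RNA from ipsilateral hippocampi was profiled with the OpenArray in 12 samples, of which the 3 wt control samples are reported. Per the labels, the authors' deposited file holds Ct values without normalization, with 1 Ct per miRNA assay and sample. The software and threshold behind the Ct calls are not given in the sources used here. Samples were matched to the columns by name, and 0 columns were left unassigned. The authors also deposited fold changes relative to wt control replicate 1, a ratio that holds no order of miRNAs, and these were not used. Their empty Ct values had entered as 0.

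The mean Ct over the ranked assays was subtracted per sample. Pairs of assays were compared within samples by limma 3.58.1 (lmFit with an intercept, eBayes) in R 4.3.3, with Benjamini-Hochberg adjustment over all pairs of a kind and a threshold of 0.05. An exact sign-flip test of 3 samples cannot give a p below 0.25. The limma step was tested on simulated data. Other values and plots were made with Python 3.11.15, pandas 2.3.3, numpy 2.4.6 and matplotlib 3.10.9. Mature sequences and positions came from RefSeq (GRCm38.p6). Older assay names were matched to arms by hand, and names that could denote either arm were left unmatched.

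Named were the 20 assays at each end, listed families and markers, the 5 largest strand differences and every pair called for the passenger, pairs of 1 miRNA over 3 cycles apart or called, and the 10 widest departures of replicate 1. The members, lists and tests were chosen with earlier results of these data known. Alternatives left out single samples, changed the summary, the detection filter, the scaling, the variance model or the pairing. With 1 reading per assay and sample, the number of samples limits the precision.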

Additional observations from a re-analysis of the deposited data

Results flagged for a closer look

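The plant miRNA ath-miR159a, a control that mouse RNA should not contain, was read in 2 wells per sample. In wt control replicate 1 it had a Ct of 23.9 in 1 of the wells, and in replicates 2 and 3 both wells were empty. It drew attention because a signal appeared in a control assay outside the ranking. In the other 9 samples 1 well had a Ct, 13.5 in P2rx7-/- post-SE replicate 1. What gave the signal was not tested.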

How the results depend on the processing

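No paired analysis was possible because a single group was described and its replicate numbers pair it with no other sample. Of 60 values under alternative settings, 46 stayed within 1.5 times the value reported (for correlations, within 0.05). Of the 20 most abundant assays, 12 to 19 were shared when 1 sample was left out (12 without replicate 1) and 13 with a Ct required in 2 of 3 samples. With empty values of the 7 assays listed between 10 and 13 set to 10, 13 were shared, which followed from that choice. Of the 20 least abundant, 10 to 18 were shared when 1 sample was left out (10 without replicate 1), 5 with a Ct below 26, 13 with a Ct in 2 of 3 samples, 8 with a Ct in all 12 samples and 12 among assays with an SD of at most 1 cycle. The median SD ran from 0.29 (without replicate 1) to 0.69 cycles with 1 sample left out. Pairs with the same species prefix in both assays gave 16 of 29 called for the guide and 2 of 3 called between assays of the same miRNA. With 1 sample left out, 1 to 4 pairs were called for the passenger (1 without replicate 3). Between assays of the same miRNA name 0 to 12 pairs were called (0 without replicate 3, 12 without replicate 1). Fewer samples remained in these fits. A Ct near 10 or 28 limits what can be ranked, and the scaling had no part in the order with all 3 samples.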
